A study of Mus musculus with 15 samples.

Results

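Genes that are commonly used to describe macrophage polarization were followed in tumors of 4 syngeneic mouse glioblastoma lines and in naïve brain. They were chosen by name: Arg1, Nos2, Mrc1, Cd163, Msr1, Marco, Retnla and Il1rn, which are 8 of the 46679 genes in the deposited tables, each matched by its Ensembl identifier in GENCODE. All 15 samples came from C57BL/6 mice, with 3 mice in each of 5 groups. The mice were 6 to 8 weeks old when tumor cells were implanted in the right hemisphere, at 500000 cells for Mut3 and 100000 cells for each of the other lines (CT2A, GL261 and 005), all carrying GFP and firefly luciferase. CT2A and GL261 were induced with methylcholanthrene, 005 arose from activated H-ras and AKT in p53+/- mice, and Mut3 arose from loss of NF1 and p53. Each group of tumors therefore stands for 1 implanted line. Mice were perfused with PBS at end stage, and RNA was taken from whole tumor tissue or naïve brain, in which fewer cells of a type and less RNA per cell cannot be told apart.

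Macrophages stimulated by interferon-gamma and bacterial lipopolysaccharide (LPS) express Nos2, which makes nitric oxide from arginine. Interleukin-4 and interleukin-13, which act through STAT6, induce Arg1, which turns the same arginine into ornithine and urea, and also Retnla and Mrc1 in mouse cells. The scavenger receptors Cd163, Msr1 and Marco and the interleukin-1 receptor antagonist Il1rn are often listed beside them. In brain, macrophages of the borders carry Mrc1 and Cd163, whereas microglia carry little of either.

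The members share no chromosome arrangement beyond a pair on chromosome 2. In GENCODE M21 (GRCm38), Mrc1 lies at chr2:14229392-14332057 on the plus strand and Il1rn at chr2:24336853-24351494 on the plus strand. Arg1 lies at chr10:24915221-24927484 (minus), Nos2 at chr11:78920787-78960254 (plus), Cd163 at chr6:124304656-124330527 (plus), Msr1 at chr8:39581685-39642673 (minus), Marco at chr1:120474538-120505024 (minus) and Retnla at chr16:48842551-48844461 (plus). All 8 are protein-coding genes.

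Promoters are shown for Mrc1, Retnla and Il1rn, since these differed among the tumor lines and are in the RefSeq promoter table (GRCm38.p6), which holds 5 of the 8 members. Each window is the stretch within 250 bases before a transcription start that lies outside annotated exons, read 5′ to 3′ on the gene's strand. Capitals mark a match to the STAT motif TTCNNNNGAA or to the kappa-B motif GGGNNNNNCC, searched on both strands.
Retnla, chr16:48842359-48842550 (plus): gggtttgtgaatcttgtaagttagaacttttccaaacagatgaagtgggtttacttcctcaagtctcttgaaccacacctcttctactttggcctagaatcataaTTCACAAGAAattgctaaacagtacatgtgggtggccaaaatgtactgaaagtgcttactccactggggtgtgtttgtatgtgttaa
Il1rn, upstream start, chr2:24336610-24336852 (plus): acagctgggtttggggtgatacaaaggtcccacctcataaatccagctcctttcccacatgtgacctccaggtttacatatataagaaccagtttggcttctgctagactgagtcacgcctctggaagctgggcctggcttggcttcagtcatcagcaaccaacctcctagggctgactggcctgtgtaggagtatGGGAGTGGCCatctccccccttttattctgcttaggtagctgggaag
Il1rn, downstream start, chr2:24345041-24345287 (plus): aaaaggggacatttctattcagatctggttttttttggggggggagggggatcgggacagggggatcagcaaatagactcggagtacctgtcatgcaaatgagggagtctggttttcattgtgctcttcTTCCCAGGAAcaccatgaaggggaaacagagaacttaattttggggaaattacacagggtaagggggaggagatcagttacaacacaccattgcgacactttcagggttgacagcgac
Mrc1, chr2:14229164-14229391 (plus): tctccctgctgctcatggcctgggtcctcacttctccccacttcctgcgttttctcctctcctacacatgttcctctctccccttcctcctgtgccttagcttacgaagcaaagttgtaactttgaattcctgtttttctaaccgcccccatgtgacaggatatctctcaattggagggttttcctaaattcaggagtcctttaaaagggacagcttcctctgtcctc
The Retnla window holds the STAT motif at bases -145 to -136 from its start, and the downstream Il1rn window holds it at -121 to -112. Of 32851 promoters searched, 5.85% hold this motif within 250 bases and 45.8% hold the kappa-B motif, which the upstream Il1rn window has at -54 to -45. The search left out a single chromosome, which holds none of the members. It covered the full 250 bases, whereas the windows shown stop at exons, after 192 bases for Retnla and 228 for Mrc1. The Mrc1 window holds neither, and has 3 copies of the PU.1 motif GAGGAA on the opposite strand, a motif that 23.3% of promoters hold. The Retnla window also has the PU.1 motif, at -196 to -191 on the opposite strand. These are matches of letters, and no binding was measured.

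Counts were scaled to CPM (counts relative to the total of a library) by edgeR's TMM method. The total count per sample was 3105119 to 13130158, so that 3 counts, taken as the smallest level that a library can show, corresponded to 0.214 to 0.811 CPM (counting error only). After the filter on low counts 17481 genes were tested, and 7 of the 8 members passed, all but Marco. Replicate 3 of 005 stood apart from the other 005 tumors. Its 6 neuron markers summed to 372 TPM (a length-scaled share of transcripts) against 11.2 and 34.2, and its 4 choroid plexus markers to 4256 TPM against 85.0 and 380. The summed level of 10 pan-macrophage genes (Csf1r, Aif1, Itgam, Fcgr1, Adgre1, Cd68, Tyrobp, Fcer1g, Laptm5 and Ctss) was 280 to 299 TPM in naïve brain, 530 to 557 in the CT2A tumors, 1039 to 1382 in the GL261 tumors, 761 to 2395 in the 005 tumors and 90.1 to 283 in the Mut3 tumors. Mitochondrial genes took 14.97% to 23.97% of the counts of naïve brain. Of the tumors, 005 replicate 3 had a share of 17.8% and GL261 replicate 2 one of 11.3%, whereas no other tumor passed 7.59%. GL261 replicate 2 was also the lowest of its group in Arg1, Mrc1, Msr1 and Il1rn, and the part of the mitochondrial share in these results was not tested. Macrophage genes were measured in every group, lowest in Mut3 replicate 1 and highest in 005 replicate 2.

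Compared with naïve brain, Arg1, Msr1 and Il1rn rose in CT2A, GL261 and 005 tumors, Mrc1 rose in 005, and Mut3 was the line in which fewest members changed. A gene was called in edgeR's quasi-likelihood test when it changed by at least 1 on the log2 scale with an adjusted p (Benjamini-Hochberg) under 0.05. In CT2A 3 members rose and 1 fell out of 7 tested, where 39.2% of all tested genes were called, 19.0% higher and 20.2% lower. In GL261 3 members rose, where 22.4% of genes were called, 14.6% higher and 7.77% lower. In 005 4 rose, where 12.7% were called, 11.6% higher and 1.05% lower. In Mut3 1 rose, where 37.8% were called, 17.9% higher and 19.8% lower. The share of members that rose was thus above that of all genes in CT2A, GL261 and 005, and close to it in Mut3. Without 005 replicate 3 the 4 members called in 005 were still called, at log2 changes of 5.46 for Arg1, 3.66 for Mrc1, 4.53 for Msr1 and 6.22 for Il1rn. The median log2 change of the 7 members was 2.92, 3.24, 4.11 and 0.97 in CT2A, GL261, 005 and Mut3, beside -0.04, -0.08, 0.01 and 0.11 over all tested genes. These 4 comparisons share the naïve samples. TPM, which the authors also deposited, placed a tumor lower against naïve brain than CPM did, by 0.98 on the log2 scale in the CT2A tumors, 0.81 in the GL261 tumors, 0.60 in the 005 tumors and 0.82 in the Mut3 tumors (36 genes), and directions below are on the CPM scale.

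**Figure D1:**
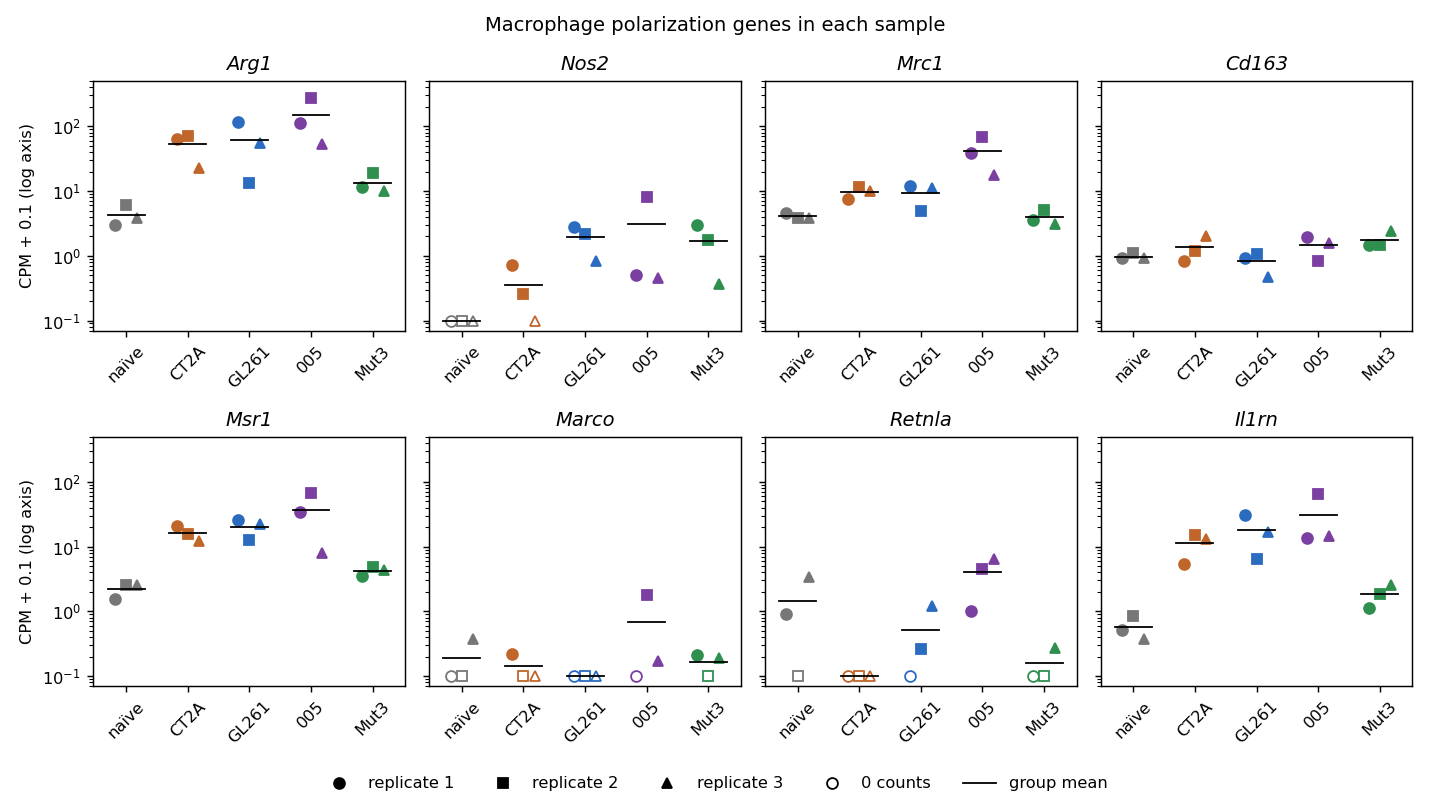
CPM plus 0.1 on a log axis for each of the 8 members in each of the 15 samples, by group, with replicates 1 to 3 as circles, squares and triangles, open symbols for 0 counts and a line at the group mean. Arg1, Msr1 and Il1rn lie above naïve brain in all the CT2A, GL261 and 005 tumors, Mrc1 lies highest in the 3 005 tumors, and Marco, Nos2 and Retnla lie near the lower limit in most samples.

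Among the enzymes of arginine, Arg1 had the highest mean TPM of the members in every tumor line, at 7.26 for CT2A, 8.89 for GL261, 24.2 for 005 and 2.02 for Mut3. Arg1 was at 2.86, 5.98 and 3.79 CPM in naïve brain, 63.1, 71.7 and 22.9 in the CT2A tumors, 115.03, 13.4 and 56.0 in the GL261 tumors, 113, 277 and 53.0 in the 005 tumors and 11.3, 18.6 and 9.76 in the Mut3 tumors. In CPM all 12 tumors lay above all 3 naïve samples, and GL261 replicate 2 lay within the range of Mut3. On the TPM scale GL261 replicate 2 (2.12) and Mut3 replicates 1 and 3 (1.70 and 1.47) lay below naïve replicate 2 (2.15). Over naïve brain, the CT2A tumors had a log2 fold change of Arg1 of 3.64 ± 0.78 (SE, n = 3 per group here and below) (adjusted p = 0.00338), the GL261 tumors 3.87 ± 0.79 (adjusted p = 0.00405) and the 005 tumors 5.13 ± 0.83 (adjusted p = 0.00197), each called in all 15 fits that left out 1 library. The SE of a fold change was derived from edgeR's test, as its size divided by the square root of the F statistic. It rests on the fit to all 15 samples. In Mut3 the log2 fold change of Arg1 was 1.65 ± 0.75, which did not pass (adjusted p = 0.0897, and 0.0499 without GL261 replicate 2). It passed with DESeq2 (0.0485), no filter (0.0460) and a fit of only the samples compared (0.0162). In the other settings the adjusted p was up to 0.550. In order, 005, GL261 and CT2A overlapped and neighbours did not differ beyond their spread (adjusted p = 0.440 for 005 against GL261 and 0.869 for CT2A against GL261). CT2A and Mut3 did not overlap, but the test did not pass (adjusted p = 0.0759), except without GL261 replicate 2 (0.0434) or 005 replicates 2 or 3 (0.0486 and 0.0413).

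Nos2, which encodes the inducible nitric oxide synthase, was scarce. Nos2 had 0 counts in all 3 naïve samples, 5.00, 0.61 and 0 estimated counts in the CT2A tumors, 13.3, 12.7 and 6.12 in the GL261 tumors, 4.28, 66.6 and 5.44 in the 005 tumors and 26.2, 13.1 and 2.52 in the Mut3 tumors. A single 005 tumor, replicate 2, held more Nos2 than any other sample, at 8.09 CPM. Against the level that 3 counts per naïve library allow, mean Nos2 was at least 2.54-fold higher in GL261, at least 4.08-fold higher in 005 and at least 2.22-fold higher in Mut3, whereas the CT2A mean of 0.255 CPM was below that level. The 005 limit rests on replicate 2, without which the mean of 0.384 CPM was below that level too, and without Mut3 replicate 1 the Mut3 limit was 1.31-fold. Of these the test called Mut3 (adjusted p = 0.0456) and not GL261 (0.0586) or 005 (0.0549). The Mut3 call was lost in 9 of the 15 fits without 1 library, with adjusted p of 0.104, 0.0850 and 0.0899 without naïve replicates 1, 2 and 3, 0.107 and 0.0719 without Mut3 replicates 1 and 2, 0.0551 without CT2A replicate 2, and 0.0544, 0.0568 and 0.0516 without GL261 replicates 1, 2 and 3. GL261 passed without 005 replicate 2 (0.0234) or 3 (0.0364), and 005 passed without its replicate 3 (0.0129) or without Mut3 replicate 3 (0.0488). The calls also depended on the method. With DESeq2 GL261 (0.0118) and 005 (0.00578) passed, as they did with no filter on low counts (0.0291 and 0.0175). They passed with a replicate block too (0.0336 and 0.0441). In the remaining settings they did not, with adjusted p up to 0.246 and 0.123. With limma on log2(TPM + 1) the Mut3 call was lost (0.316). Neighbouring tumor lines overlapped in Nos2 and none of the 6 pairs of lines differed by the test.

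Arg1 and Nos2 compete for arginine, and Arg1 had more counts in every sample. The log2 ratio of Arg1 to Nos2 (TPM plus 0.1) was 5.73 ± 0.76 (SD, n = 3) in the CT2A tumors, 4.61 ± 1.62 in the GL261 tumors, 6.18 ± 0.69 in the 005 tumors and 3.06 ± 0.83 in the Mut3 tumors. The ratio was 2.11 in Mut3 replicate 1 and 2.74 in GL261 replicate 2, the lowest among the tumors, and 6.81 in 005 replicate 1, the highest. No test was made, since Nos2 was under 3 counts in 3 tumors and its level there rests on the added 0.1. Of the 15 other genes of arginine use and transport, 1 rose and 2 fell in the CT2A tumors, 2 rose and 1 fell in the GL261 tumors, 1 rose and 1 fell in the 005 tumors and 4 rose and 1 fell in the Mut3 tumors. Among them Ddah2, which breaks down an inhibitor of nitric oxide synthases, rose in Mut3 (log2 fold change 3.05, adjusted p = 0.000740) and Ddah1 fell in CT2A (-1.86, adjusted p = 0.00304). Over all tested genes 19.0% rose and 20.2% fell in CT2A, and 14.6% and 7.77% in GL261. In 005 these shares were 11.6% and 1.05%, and in Mut3 17.9% and 19.8%. Counts against naïve brain in the lists of genes below have the same background.

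Among the receptors, the mannose receptor Mrc1 was the member that set 005 apart. Mrc1 was at 4.49, 3.74 and 3.79 CPM in naïve brain, 7.33, 11.6 and 9.82 in the CT2A tumors, 12.02, 4.85 and 11.2 in the GL261 tumors, 38.3, 68.5 and 17.6 in the 005 tumors and 3.47, 5.03 and 2.99 in the Mut3 tumors. The 005 tumors all lay above the other 12 samples, and Mut3 overlapped naïve brain. The log2 fold change in 005 was 3.36 ± 0.51 over naïve brain (adjusted p = 0.00182) and 3.43 ± 0.50 over Mut3 (adjusted p = 0.000823), both called in all 15 fits without 1 library. Mrc1 was also lower in CT2A than in 005 by -2.11 ± 0.47 (adjusted p = 0.0243) and lower in GL261 than in 005 by -2.15 ± 0.47 (adjusted p = 0.0245). The first of these was lost without CT2A replicates 1, 2 or 3 (adjusted p = 0.0649, 0.0771 and 0.108) or 005 replicate 2 (0.0701), and in a fit of CT2A and 005 alone (0.130). The second was lost without GL261 replicates 1, 2 or 3 (0.0743, 0.105 and 0.0710) or 005 replicates 1 or 2 (0.0649 and 0.106), and in a fit of GL261 and 005 alone (0.182). In the fit with replicate number as a block they had adjusted p of 0.0544 and 0.0655. In CT2A the change over naïve brain was 1.25 ± 0.49 and missed the threshold by little (adjusted p = 0.0504), with values of 0.0232 to 0.110 when 1 library was left out. It passed without CT2A replicate 1 (0.0494), GL261 replicates 1 or 2 (0.0426 and 0.0419), 005 replicates 2 or 3 (0.0326 and 0.0232) or Mut3 replicates 1 or 3 (0.0458 and 0.0443). It also passed with DESeq2 (0.0356), with at least 10 counts in every sample (0.0459) and in a fit of CT2A and naïve brain alone (0.0181). In the other settings the adjusted p was up to 0.818. Against Mut3, Mrc1 in CT2A and in GL261 did not pass in the main fit, but did without 005 replicate 2 (0.0494 and 0.0472) or 005 replicate 3 (0.0293 and 0.0328). CT2A against Mut3 also passed with DESeq2 (0.0460) and in a fit of CT2A and Mut3 alone (0.0377). In GL261 the change over naïve brain was 1.22 ± 0.49 (adjusted p = 0.0793). It passed without GL261 replicate 2 (0.0479) or 005 replicate 3 (0.0421), and in a fit of GL261 and naïve brain alone (0.0468). On the TPM scale the mean of Mrc1 was 0.266 in CT2A and 0.121 in Mut3 beside 0.224 in naïve brain.

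Msr1, a class A scavenger receptor that takes up modified lipoproteins, followed Arg1. Msr1 was at 1.43, 2.49 and 2.43 CPM in naïve brain, 20.4, 15.5 and 11.9 in the CT2A tumors, 25.7, 12.4 and 21.8 in the GL261 tumors, 34.5, 67.6 and 7.83 in the 005 tumors and 3.36, 4.78 and 4.22 in the Mut3 tumors. In CPM every CT2A, GL261 and 005 tumor lay above every Mut3 tumor, and every Mut3 tumor above naïve brain. On the TPM scale Mut3 overlapped naïve brain (0.142 to 0.204 against 0.0977 to 0.253). Relative to naïve brain, Msr1 rose by a log2 fold change of 2.92 ± 0.63 in the CT2A tumors (adjusted p = 0.00356), 3.24 ± 0.64 in the GL261 tumors (adjusted p = 0.00332) and 4.11 ± 0.65 in the 005 tumors (adjusted p = 0.00189), each called in all 15 fits without 1 library. In Mut3 it was 0.97 ± 0.62 (adjusted p = 0.231). Against Mut3, Msr1 was higher by 3.15 ± 0.60 in the 005 tumors (adjusted p = 0.00362), by 2.27 ± 0.58 in the GL261 tumors (adjusted p = 0.0172, and 0.0649 without Mut3 replicate 1) and by 1.95 ± 0.58 in CT2A (adjusted p = 0.0378). The last was lost without CT2A replicates 1, 2 or 3 (0.102, 0.0696 and 0.0569), Mut3 replicates 1, 2 or 3 (0.118, 0.0853 and 0.0817) or GL261 replicate 3 (0.0518). The tumor lines CT2A, GL261 and 005 overlapped in Msr1, and CT2A against 005 passed without 005 replicate 3 (0.0285).

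Cd163, which takes up complexes of haemoglobin and haptoglobin, stayed between 0.364 and 2.29 CPM in all samples, or 3.47 to 26.0 estimated counts. Cd163 was at 0.816, 0.996 and 0.811 CPM in naïve brain, 0.733, 1.09 and 1.94 in the CT2A tumors, 0.829, 0.970 and 0.364 in the GL261 tumors, 1.85, 0.724 and 1.495 in the 005 tumors and 1.34, 1.38 and 2.29 in the Mut3 tumors. Mut3 had the highest mean and lay above the range of naïve brain, but neighbours in the order overlapped. Relative to naïve brain, the log2 fold change was 0.51 ± 0.65 in the CT2A tumors, -0.30 ± 0.68 in the GL261 tumors, 0.63 ± 0.64 in the 005 tumors and 0.93 ± 0.64 in the Mut3 tumors, and no comparison of Cd163 passed. On the TPM scale the mean was 0.0847 in naïve brain, 0.0568 in CT2A, where the sign turned, 0.0395 in GL261, and 0.0846 in 005 and 0.0878 in Mut3, whose log2 ratios to naïve brain were then -0.0027 and 0.05. Of 7 tested genes that handle haem and iron, 5 rose in the CT2A tumors, 2 in the GL261 tumors, 2 in the 005 tumors and 3 in the Mut3 tumors, among them Hmox1, which breaks down haem, in Mut3 (log2 fold change 3.13, adjusted p = 0.00215).

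Marco, a scavenger receptor that binds bacteria and particles, was at or under 3 counts in 14 of the 15 samples and was not tested. It reached 13.9 estimated counts in 005 replicate 2, or 1.69 CPM. That tumor also held the highest Nos2, Arg1, Mrc1, Msr1 and Il1rn and the highest pan-macrophage sum. Among 12 tested genes of other scavenger receptors, 4 rose and 1 fell in the CT2A tumors, 3 rose in the GL261 tumors, 4 rose in the 005 tumors and 3 rose and 3 fell in the Mut3 tumors. Cxcl16, a receptor for oxidized lipoprotein that is also a chemokine, rose in CT2A, GL261 and 005 by 2.33, 3.02 and 4.07 on the log2 scale. Scara3 fell in Mut3 (log2 fold change -4.07, adjusted p = 0.000469).

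Among the secreted proteins, Il1rn rose in CT2A, GL261 and 005, from a naïve level that was under 3 counts in 2 of the 3 libraries, so that the size of its folds rests on few counts. Il1rn, which blocks the interleukin-1 receptor, was at 0.408, 0.747 and 0.270 CPM in naïve brain, 5.37, 14.9 and 12.9 in the CT2A tumors, 31.1, 6.30 and 16.6 in the GL261 tumors, 13.5, 64.0 and 14.2 in the 005 tumors and 1.01, 1.76 and 2.46 in the Mut3 tumors. In CPM all tumors lay above naïve brain, where Il1rn had 0.932 to 3.35 estimated counts, and no Mut3 tumor reached the other lines. On the TPM scale Mut3 replicates 1 and 2 (0.104 and 0.188) lay below naïve replicate 2 (0.210). Relative to naïve brain, Il1rn rose by a log2 fold change of 4.49 ± 0.89 in the CT2A tumors (adjusted p = 0.00223), 5.19 ± 0.89 in the GL261 tumors (adjusted p = 0.00146) and 5.95 ± 0.90 in the 005 tumors (adjusted p = 0.00182), each called in all 15 fits without 1 library, and 1.85 ± 0.92 in Mut3, which did not pass (adjusted p = 0.122). Against Mut3, Il1rn was higher by 4.11 ± 0.75 in the 005 tumors (adjusted p = 0.00295), by 3.34 ± 0.73 in the GL261 tumors (adjusted p = 0.00800) and by 2.64 ± 0.72 in the CT2A tumors (adjusted p = 0.0250). The CT2A call was lost without CT2A replicates 2 or 3 (0.0700 and 0.0678) or Mut3 replicates 1 or 2 (0.0936 and 0.0781). CT2A, GL261 and 005 overlapped.

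Il1b, the agonist at the receptor that Il1rn blocks, was at a mean of 4.89 ± 0.98 CPM (SD, n = 3) in naïve brain, 15.7 ± 13.1 in the CT2A tumors, 16.2 ± 8.07 in the GL261 tumors, 28.3 ± 30.5 in the 005 tumors and 3.33 ± 1.15 in the Mut3 tumors. Its change over naïve brain passed in none of the 4 lines, but in 005 it missed the threshold by little (log2 fold change 2.53, adjusted p = 0.05001). Between lines, Il1b passed only in 005 over Mut3 (3.07, adjusted p = 0.0165). By edgeR's F test it differed among the 5 groups (adjusted p = 0.0208), but not among the 4 tumor lines (0.0533). The log2 ratio of Il1rn to Il1b (TPM plus 0.1) was -0.92 ± 0.83 in the CT2A tumors, -0.64 ± 0.40 in the GL261 tumors, -0.39 ± 0.65 in the 005 tumors and -1.29 ± 0.17 in the Mut3 tumors, and it was -2.95, -3.04 and -3.23 in the naïve samples, below all the tumors. The 4 lines were not shown to differ (exact permutation test over all 369600 divisions of the 12 tumors, p = 0.331). Of the 11 genes of the interleukin-1 system, 4 rose and 1 fell in the CT2A tumors, 3 rose in the GL261 tumors, 2 rose in the 005 tumors and 1 fell in the Mut3 tumors. Il18bp, which binds interleukin-18, rose in CT2A, GL261 and 005 by 1.90, 5.59 and 4.21 on the log2 scale.

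Retnla, a secreted resistin-like protein that interleukin-4 induces in mouse macrophages, had 3 counts or fewer in 8 of the 12 tumors. It had 4.50, 0 and 11.8 estimated counts in naïve brain, 0 in all 3 CT2A tumors, 0, 0.975 and 9.13 in GL261, 9.005, 37.5 and 90.1 in 005, and 0, 0 and 1.96 in Mut3. Only 005 exceeded 3 counts in all its replicates, and its highest value, 6.41 CPM, was in replicate 3. In that tumor the 5 eosinophil markers summed to 12.7 TPM, against at most 1.47 in the other 14 samples, and the 8 neutrophil markers to 73.7 TPM, against at most 32.4. Their part in the result was not tested. Mean Retnla was at least 9.68-fold higher in 005 than 3 counts per CT2A library allow, and CT2A was lower than 005 in the test (adjusted p = 0.0435). This call was lost in 10 of the 15 fits without 1 library, where the adjusted p was 0.0336 to 0.1504, and was 0.0711 without 005 replicate 3, 0.0599 without 005 replicate 2, and 0.0765, 0.148 and 0.1504 without CT2A replicates 1, 2 and 3. The other 5 were naïve replicate 1 (0.0612), GL261 replicate 2 (0.0601) and Mut3 replicates 1, 2 and 3 (0.0573, 0.0573 and 0.0616). Retnla was also higher in 005 than in Mut3, with 137 against 2 counts (ratio 60.4, exact 95% interval 16.4 to 504 for counting error only, adjusted p = 0.0238). That call was lost without 005 replicate 3 (0.0553) or Mut3 replicates 1, 2 or 3 (0.0885, 0.0787 and 0.0517). Mean Retnla in naïve brain was at least 3.33-fold above the CT2A limit, and at that limit without naïve replicate 3 (0.408 against 0.407 CPM). The fall in CT2A (adjusted p = 0.0264) was lost without naïve replicate 3 (0.113) or CT2A replicates 1, 2 or 3 (0.0576, 0.0681 and 0.0697), with overlap at 0 in naïve replicate 2. The change in 005 over naïve brain was not called (adjusted p = 0.387). Of its relatives, Retnlg, which neutrophils express, rose in 005 (mean 13.8 CPM, adjusted p = 0.00204) and in GL261 (mean 2.58 CPM, adjusted p = 0.0182) from under 3 counts in each naïve library, and Retn passed in no line.

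**Figure D2:**
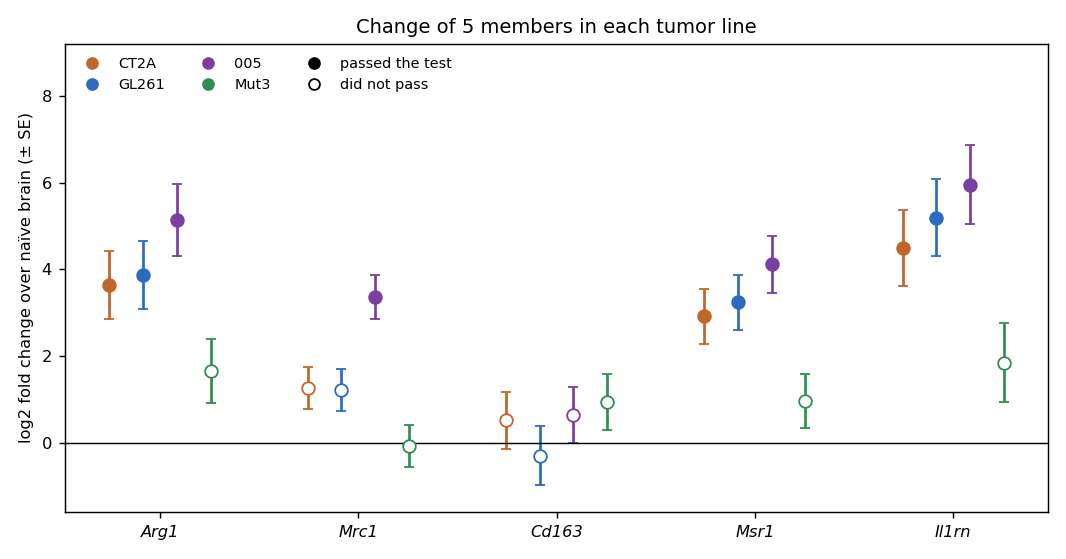
Log2 fold change over naïve brain with its SE (derived from the F statistic of the test) for the 5 members that have counts in every group, by tumor line, from edgeR with 3 mice per group. Filled points passed the test (adjusted p under 0.05 and at least 1 on the log2 scale). Arg1, Msr1 and Il1rn passed in CT2A, GL261 and 005, Mrc1 passed in 005, and no point for Cd163 or Mut3 passed.

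Across the tumor lines, 5 members (Arg1, Mrc1, Msr1, Retnla and Il1rn) differed among the 4 lines at an adjusted p under 0.05, where 26.8% of all tested genes did, and the same 5 differed among the 5 groups (52.1% of all tested genes). Of 7 members tested, 5 were higher in 005 than in Mut3, where 19.8% of all tested genes were called, 14.0% higher and 5.76% lower. Against Mut3, 3 were higher in GL261 (17.2% of genes called, 11.1% higher and 6.10% lower) and 2 were higher in CT2A (12.8% called, 6.61% higher and 6.15% lower). Against 005, 2 were lower in CT2A (4.11% called, 2.12% higher and 1.99% lower) and 1 was lower in GL261 (2.62% called, 1.73% higher and 0.887% lower). Between CT2A and GL261, where 7.77% of genes were called, 4.15% higher in CT2A and 3.62% lower, edgeR called 0 members, with 1 at an unadjusted p under 0.05, and DESeq2 and limma also called 0. In 005 against Mut3, Arg1 was higher by 3.48 ± 0.75 (adjusted p = 0.00678). In GL261 against Mut3 it was higher by 2.22 ± 0.71 (adjusted p = 0.0440), which was lost in 9 of the 15 fits without 1 library. The 9 libraries were naïve replicates 1, 2 and 3 (0.0532, 0.0535 and 0.0559), CT2A replicate 1 (0.0514), GL261 replicates 1 and 3 (0.169 and 0.0822) and Mut3 replicates 1, 2 and 3 (0.117, 0.0718 and 0.110).

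The study divides the lines into immune-active (GL261 and 005) and immunologically inert (CT2A and Mut3), a division it made on these RNA data, so that the following counts are not independent evidence of it. Mice of a line are also not independent samples of a class. The SE and adjusted p below therefore measure the spread of mice within lines, not of lines within a class. Of the 7 members tested, 5 were higher in the immune-active lines, where 16.9% of all tested genes were called, 12.6% higher and 4.29% lower. The log2 difference was 1.85 ± 0.49 for Arg1 (adjusted p = 0.0182), 1.70 ± 0.33 for Mrc1 (adjusted p = 0.00445), 1.74 ± 0.40 for Msr1 (adjusted p = 0.00951) and 2.403 ± 0.49 for Il1rn (adjusted p = 0.00548), each called in all 15 fits without 1 library. For Retnla it was 147 against 2 counts (adjusted p = 0.0152), which was lost without GL261 replicate 3 (0.141). Between CT2A and GL261, which stand on either side of this division, the log2 difference of CT2A over GL261 was 0.04 ± 0.46 for Mrc1 and -0.22 ± 0.68 for Arg1, and neither passed.

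Genes of both axes were higher in the same tumors as the members. Against CT2A and Mut3, 9 of 19 tested genes of the interleukin-4 and interleukin-13 axis were higher in GL261 and 005, with a median log2 difference of 1.51, and so were 11 of 21 tested genes of the interferon-gamma and LPS axis, with a median of 1.66, beside 0.10 over all tested genes. Over all tested genes 12.6% were called higher and 4.29% lower in this comparison, which is the background of all its counts here. In the first list Chil3, a chitinase-like protein, Ccl17, a chemokine for T cells, and Clec7a, the beta-glucan receptor, were higher by 3.52, 2.22 and 2.86. In the second Cxcl9, a chemokine that interferon-gamma induces, Irf1 and Cd38 were higher by 3.64, 2.03 and 1.76. Of the pan-macrophage genes, 9 of 10 were higher, with a median of 1.61, as were 6 of 10 microglia markers, 5 of 5 tested T cell markers and 6 of 6 neuron markers, and their part in the difference of the members was not tested. Against naïve brain, 11 genes of the first list and 10 of the second rose in 005 and 0 of either fell. In CT2A 5 and 9 rose and 1 of each fell, in GL261 7 and 8 rose and 1 of each fell, and in Mut3 3 and 2 rose, whereas 4 and 2 fell. In Mut3 Myc, which interleukin-4 induces in macrophages and which many tumor cells express, rose by 5.16 and Ptgs2, the prostaglandin synthase, fell by 2.61 on the log2 scale.

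**Figure D3:**
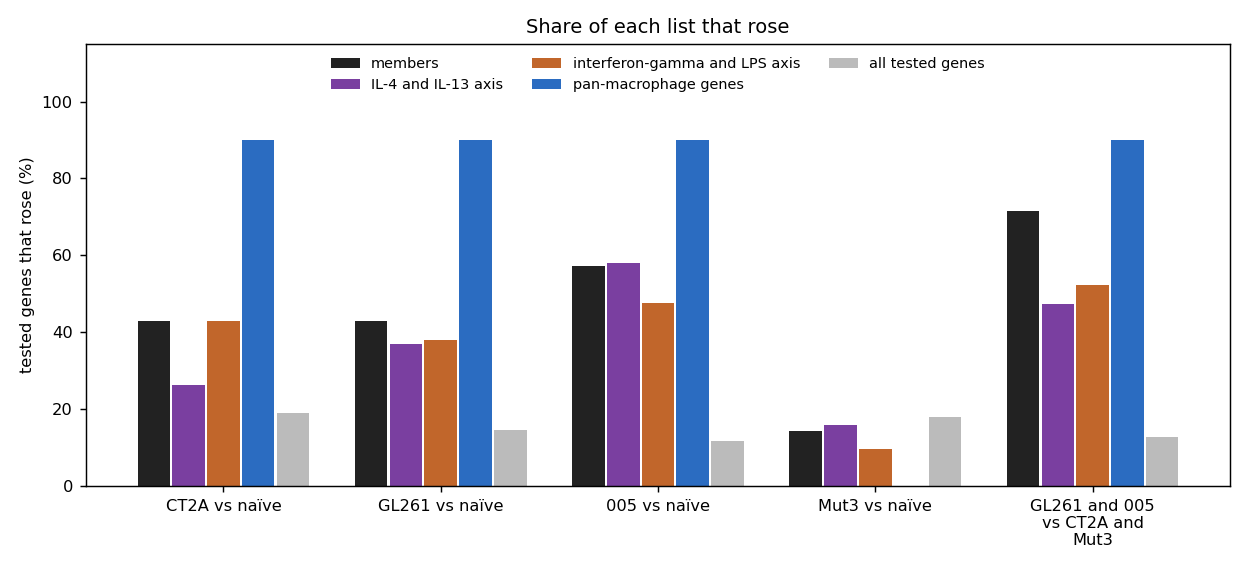
Percentage of the tested genes of each list that rose (adjusted p under 0.05 and at least 1 on the log2 scale), for the 4 comparisons of a tumor line with naïve brain and the comparison of the immune-active with the inert lines, beside the percentage over all 17481 tested genes. In Mut3 1 of 7 members, 3 of 19 and 2 of 21 genes of the axes and 0 of 10 pan-macrophage genes rose, and in the other comparisons 9 of 10 pan-macrophage genes did.

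To set the members against the macrophage content of each tumor, log2(TPM + 0.1) of a member was compared with the mean of the 10 pan-macrophage genes, for the 5 members with at least 3 counts in each of the 12 tumors. Relative to these genes Mrc1 was at -4.32 ± 0.45 (SD, n = 3) in 005, -4.43 ± 0.67 in Mut3, -5.21 ± 0.21 in CT2A and -5.99 ± 0.42 in GL261, and at -4.72 ± 0.12 in naïve brain. In Mut3 Mrc1 itself was 0.0932 to 0.160 TPM, about the size of the added 0.1, which raises its ratio there more than in 005 (0.891 to 2.21 TPM), so that the place of Mut3 beside 005 is uncertain. The 4 lines differed (exact permutation test over 369600 divisions, p = 0.00636 and 0.0159 adjusted over 5 members). Without GL261 replicate 2 the adjusted p for Mrc1 was 0.0834. All 3 GL261 tumors lay below all the other samples in this ratio.

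Cd163 relative to the pan-macrophage genes was highest in Mut3, at -4.66 ± 0.55, and lower in CT2A (-6.44 ± 0.10), 005 (-7.28 ± 1.03) and GL261 (-7.44 ± 0.25), with naïve brain at -5.52 ± 0.11. The difference among the lines passed the same exact permutation test (p = 0.00299, adjusted p = 0.0149), and the Mut3 tumors lay above the other 9 tumors. Cd163 itself was below the added 0.1 TPM in most tumors and passed no test in edgeR, and the reference genes themselves were lowest in Mut3. The test of this ratio therefore cannot tell a difference of Cd163 from one of the reference genes. Arg1, Msr1 and Il1rn, which differed among the lines in CPM, were not shown to differ once set against these genes (adjusted p = 0.547, 0.681 and 0.547). The ratio of Arg1 was -1.06 ± 1.08 in the CT2A tumors, -1.80 ± 1.34 in the GL261 tumors, -0.42 ± 0.50 in the 005 tumors and -1.22 ± 0.76 in the Mut3 tumors, beside -2.84 ± 0.72 in naïve brain.

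**Figure D4:**
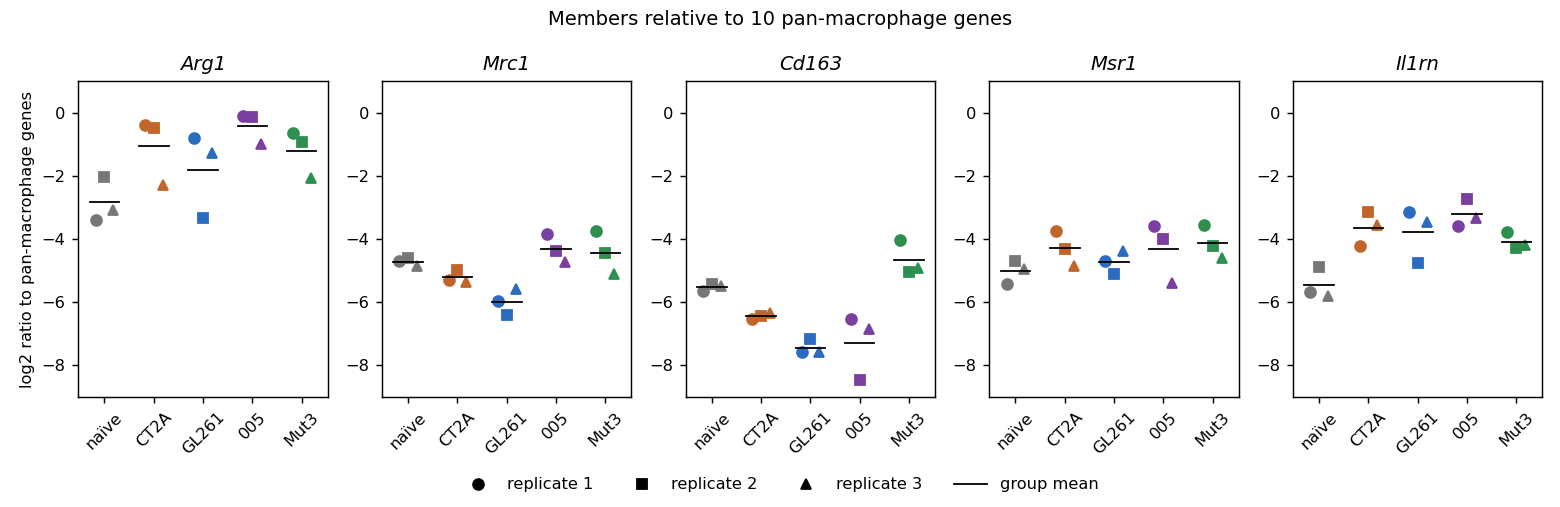
Log2 ratio of each of 5 members to 10 pan-macrophage genes (log2 of TPM plus 0.1, minus the mean of the 10 genes) in each sample, by group, with a line at the group mean. Mrc1 is lowest in the GL261 tumors (-6.42 to -5.58) and Cd163 is highest in the Mut3 tumors (-5.04 to -4.03), whereas the lines with neighbouring means overlap for Arg1, Msr1 and Il1rn.

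Across the 15 samples in log2 CPM, which share depth and tissue makeup, Arg1, Msr1, Il1rn and Mrc1 went together (Pearson r of 0.83 to 0.94 for their 6 pairs), whereas Cd163 had r of -0.22 to -0.09 with the other tested members. Among all tested genes with a mean log2 CPM of at least 0, those most like each member were Msr1 (r = 0.94), Plagl2 (0.93) and Il1rn (0.93) for Arg1, AA467197 (0.98), Mir147 (0.98) and Sirpb1c (0.96) for Msr1, and Ctsc (0.97), Cd52 (0.97) and Rac2 (0.97) for Il1rn. For Mrc1 they were Btg1 (0.95), Inpp5d (0.93) and Plbd1 (0.93), and for Retnla Ccl24 (0.84), Bahd1 (0.82) and Mier2 (0.80). For Nos2 they were Vamp8 (0.92), Slc45a4 (0.86) and Tpt1 (0.86), and for Cd163 Gm28557 (0.76), Nup214 (0.76) and Xndc1 (0.74). These are descriptions over 15 samples of 5 groups.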

How the data were processed

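RNA-seq of 15 mouse samples was used, with 3 mice in each of 5 groups taken from the sample labels. Per the methods of the study, the authors used STAR for alignment, with GENCODE as the mouse reference, and Picard tools to mark duplicates. The submitters' notes also name Salmon, DESeq2 1.18.1 and mm10, without roles, and the annotation release is not given in the sources used here. The authors deposited a table of estimated counts per gene, not normalized between samples, and a table of TPM, scaled to gene length and to the same total per sample.

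Estimated counts were rounded and tested in edgeR 4.0.16 (R 4.3.3): filterByExpr, TMM, and the quasi-likelihood test fitted to all 15 samples with a mean per group and no covariate, with adjustment over 17481 genes. Log2 CPM used a prior count of 2. Ratios used log2(TPM + 0.1) with exact permutation tests in Python 3.11.15. The steps were tested on simulated data. Alternatives were DESeq2 1.42.0, scaling by library size, no filter, at least 10 counts in every sample, limma 3.58.1 on log2(TPM + 1), a replicate block, no fold threshold, only the samples compared, each library left out, and other scales and references for the ratios.

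The members and lists were chosen with earlier results of these data known. Named genes are the 8 members, up to 4 genes per list with the smallest p among the 5 groups, partners in ratios, and the 3 genes most like each member. Gene positions are from GENCODE M21. The labels name no sequencing batch. Samples sharing a replicate number are different mice. The most similar pair within a group had r = 0.951, and no library was counted as a repeat.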

Additional observations from a re-analysis of the deposited data

Results flagged for a closer look

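The change over naïve brain differed among the 4 tumor lines for 5 members, by edgeR's F test of the difference itself over the lines. The adjusted p was 0.0178 for Arg1, 0.000658 for Mrc1, 0.00956 for Msr1, 0.0126 for Retnla and 0.00710 for Il1rn, with log2 changes of 1.65 to 5.13 for Arg1, -0.07 to 3.36 for Mrc1, 0.97 to 4.11 for Msr1 and 1.85 to 5.95 for Il1rn. In each of these 4 the line with the smallest change was Mut3 and the line with the largest was 005. For Retnla the lines with the lowest and the highest level were CT2A, with 0 counts, and 005, with 9.005 to 90.1 estimated counts. Arg1 no longer passed without Mut3 replicate 1 (0.0597) or Mut3 replicate 3 (0.0574). With limma on log2(TPM + 1) Msr1 no longer passed (0.0528).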

How the results depend on the processing

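Of 30 calls of a member between groups, 19 held in all 15 fits that left out 1 library and 11 were lost in at least one, and no called change turned its direction under a setting tried. Of 1693 values of a member under another setting, 22 had the other sign, all of them not called, such as Cd163 in CT2A against naïve brain (-0.04) and Mrc1 in CT2A against GL261 (-0.03) with limma on log2(TPM + 1). The counts of members called moved most with at least 10 counts in every sample, where 2 members remained tested and the count fell to 2 for CT2A, 1 for GL261, 2 for 005 and 0 for Mut3 against naïve brain, 1 in CT2A against 005, 0 in CT2A and 1 in GL261 and 2 in 005 against Mut3, and 2 in GL261 and 005 against CT2A and Mut3, among the 5 groups and among the 4 lines. With limma on log2(TPM + 1) it was 1 in CT2A and 0 in Mut3 against naïve brain, 0 in CT2A against 005, 0 in GL261 against 005, 0 in CT2A and 0 in GL261 against Mut3, and 2 in GL261 and 005 against CT2A and Mut3. The added 1 exceeds the TPM of most members, which shrinks their changes. DESeq2 gave 3 for Mut3 against naïve brain and 4 for CT2A against Mut3, no filter gave 3 for Mut3 against naïve brain, library size gave 1 for CT2A against Mut3, and a fit of only the samples compared gave 0 for CT2A against 005, 4 for CT2A against Mut3 and 0 for GL261 against 005, and the cause was not tested.

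Pairing by replicate number was checked on the deviation of each sample from its group mean in log2 CPM. Of 30 correlations of these deviations between same-numbered samples, 1 was over 0.1, at 0.26 among those numbered 2. No pairing was assumed in the main fit. With the replicate block the count was 2 for Mut3 against naïve brain, 1 for CT2A against 005, 1 for CT2A against Mut3 and 0 for GL261 against 005.

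Leaving out 1 library gave counts of 3 to 5 for CT2A, 3 to 5 for GL261, 4 to 5 for 005 and 0 to 1 for Mut3 against naïve brain, 0 to 0 for CT2A against GL261, 0 to 2 for CT2A against 005, 0 to 4 for CT2A against Mut3, 0 to 1 for GL261 against 005, 1 to 4 for GL261 against Mut3, 4 to 5 for 005 against Mut3, 4 to 5 for GL261 and 005 against CT2A and Mut3, 5 to 6 among the 5 groups and 4 to 5 among the 4 lines. The ratio to pan-macrophage genes differed between its highest and lowest line by 1.43 to 1.88 for Mrc1, 2.46 to 2.96 for Cd163, 0.62 to 1.87 for Arg1, 0.32 to 0.85 for Msr1 and 0.63 to 1.05 for Il1rn, and that of Il1rn to Il1b by 0.53 to 1.12. With log2(TPM + 1) the Msr1 ratio passed (1.26, adjusted p = 0.0281) and the Il1rn ratio turned to -0.30 (adjusted p = 0.283). Depth limits Nos2, Marco and Retnla, which were at or under 3 counts in many libraries.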
